A study of Mus musculus with 8 samples.

Results

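The monocyte marker genes described here are Ly6c2, Plac8, Ccr2, Cx3cr1, Itgam, Fcgr1 and Lyz2. They were taken by name from a table of 15295 genes measured by RNA sequencing of mouse cartilage, and all 7 were listed in it. The labels describe 8 samples in 4 conditions of 2. These were cartilage after anterior cruciate ligament transection (ACLT) or without injury, from mice that took a CSF1-R inhibitor (40 mg/kg) or, as placebo, 0.5% sucrose in their water, for 7 days after the operation. CSF1-R is the receptor through which CSF1 and IL-34 sustain monocyte-derived cells. Strain, sex and age are not stated in the labels used here.

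The 8 value columns have headings made of the word cart, a number and a letter, L or R, and are written here as 1L, 1R and so on up to 4R (the numbers 1 and 2 are spelled out in the headings). The heading shows the tissue but not the injury state or the treatment, and no label ties a number or a letter to either. The columns are therefore given as 8 cartilage samples of unstated condition, and no effect of injury or inhibitor is reported. L and R are compared only as the letters of the headings. If the letters stand for the 2 sides of an animal, side and injury cannot be told apart here.

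Monocytes are blood leukocytes made in the bone marrow. Classical monocytes carry high Ly6C and CCR2 on their surface and enter inflamed tissue, where they can become macrophages. Non-classical monocytes carry little Ly6C and high CX3CR1 and patrol vessel walls. Several markers are shared: Itgam and Lyz2 are also expressed by neutrophils and macrophages, Cx3cr1 and Fcgr1 by tissue macrophages, and Plac8 by immature marrow granulocytes. Cartilage itself has no blood vessels. In bulk RNA, fewer cells of a type and less RNA per cell cannot be told apart.

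The columns held between 15233078 and 22708902 estimated counts in all. Cartilage genes were present throughout, with Col2a1, the main cartilage collagen, at 600 to 3942 CPM (estimated counts per 1000000 of the column's total) and Prg4, which encodes lubricin, at 4249 to 12560 CPM. Genes of other tissues were present as well. The 4 skeletal muscle genes summed to 2076 CPM in 1R and 3083 CPM in 2L, and to between 12511 and 51428 CPM in the other 6 columns. The 5 erythroid genes summed to between 21930 and 69598 CPM. No 2 columns shared more than 0.562% of their gene values exactly.

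Column 2L had the highest level of 6 of the 7 monocyte genes, all but Fcgr1, and column 4R the lowest level of 5 of them. Ly6c2, Plac8, Ccr2 and Itgam each stood in 2L at more than 2 times their level in most other columns, and they ran nearly in parallel over the 8 columns. Cx3cr1 and Fcgr1 followed other patterns, and Lyz2 lay between. The order of the columns for each gene is given below with the values.

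**Figure D1:**
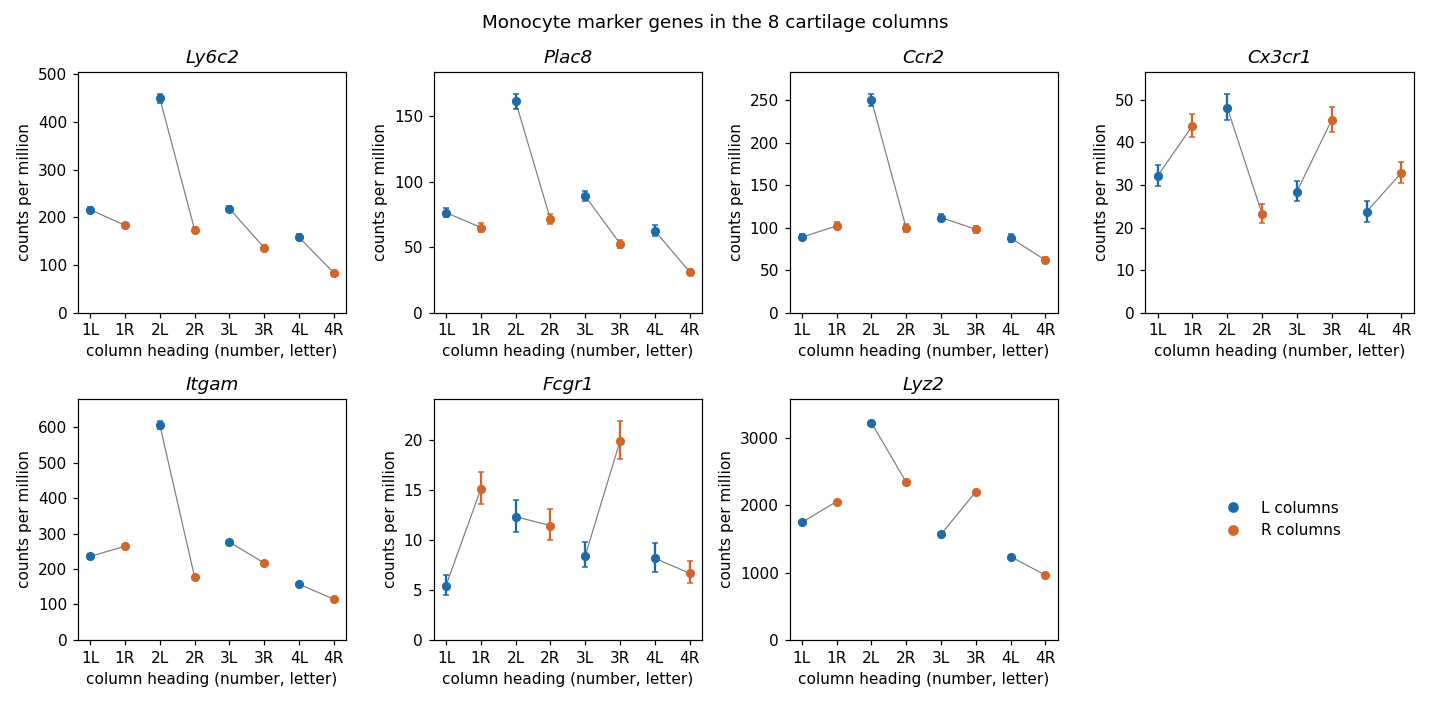
CPM (y axis, from 0) of the 7 monocyte genes in each of the 8 columns (x axis, number and letter of the heading), with L in blue and R in orange, 95% Wilson intervals of the counts as bars and a grey line joining the columns of 1 number. Column 2L is the highest for every gene except Fcgr1, which is highest in 3R at 19.9 CPM.

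Among the genes of the classical monocyte, Ly6c2 encodes the surface protein Ly6C2. Ly6c2 had 216, 450, 218 and 158 CPM in 1L to 4L, against 183, 174, 136 and 83.4 CPM in 1R to 4R. L was above R within all 4 numbers, but the 2 sets of columns overlapped, since 1R and 2R lay above 4L. The ratio of L to R was 1.18, 2.58, 1.60 and 1.89 for numbers 1 to 4. The highest column was 5.39-fold above the lowest, and 2.62-fold without the columns of number 2.

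Plac8, a small cysteine-rich protein of myeloid cells, had 76.4, 161, 89.0 and 62.6 CPM in 1L to 4L, against 65.0, 71.2, 52.7 and 31.2 CPM in 1R to 4R. L was again above R in all 4 numbers, with ratios of 1.18, 2.27, 1.69 and 2.01, and the sets again overlapped. Plac8 and Ly6c2 were high and low in nearly the same columns, with 2L, 3L and 1L on top and 4L, 3R and 4R at the bottom for both.

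Ccr2, the receptor for CCL2 that monocytes use to leave the marrow, had 88.9, 250, 112 and 87.9 CPM in 1L to 4L, against 102, 99.3, 98.1 and 61.7 CPM in 1R to 4R. Apart from 2L and 4R, the levels of Ccr2 lay between 87.9 and 112 CPM. L was above R in 3 of 4 numbers. The highest column was 4.06-fold above the lowest, and 1.82-fold without number 2.

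Itgam encodes CD11b, the alpha chain of an integrin of monocytes, macrophages and neutrophils. Itgam had 235, 606, 276 and 157 CPM in 1L to 4L, against 264, 177, 217 and 115 CPM in 1R to 4R. L was above R in 3 of 4 numbers, and the difference was greatest for number 2, at a ratio of 3.42. The beta chain that pairs with CD11b, Itgb2, had 253, 525, 264 and 183 CPM in the L columns, against 251, 202, 234 and 127 CPM in the R columns. Itgb2 was highest in 2L and lowest in 4R, as Itgam was.

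Cx3cr1, the receptor for the membrane chemokine CX3CL1, had 32.1, 48.2, 28.5 and 23.7 CPM in 1L to 4L, against 43.9, 23.2, 45.3 and 32.9 CPM in 1R to 4R. R was above L in numbers 1, 3 and 4, and L above R in number 2. The spread of Cx3cr1 was the smallest of the 7 genes, at 2.08-fold between 2L and 2R.

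Fcgr1 encodes CD64, the high-affinity receptor for IgG. Fcgr1 was the lowest of the 7 genes in CPM, with 5.43, 12.3, 8.39 and 8.14 CPM in 1L to 4L, against 15.1, 11.4, 19.9 and 6.66 CPM in 1R to 4R. R was well above L in numbers 1 and 3, while in numbers 2 and 4 the 95% Wilson intervals of L and R overlapped. With TMM scaling, an edgeR correction for differences in composition, the L column was higher in 1 number rather than 2. The least sampled value of Fcgr1 rested on 115 counts in 1L, with a Wilson interval of 4.52 to 6.51 CPM.

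Lyz2 encodes lysozyme M and was by far the most abundant of the 7 genes. Lyz2 had 1746, 3227, 1569 and 1237 CPM in 1L to 4L, against 2056, 2342, 2203 and 962 CPM in 1R to 4R. L was above R in numbers 2 and 4 and below it in numbers 1 and 3. Lyz2 made up 67.9% to 80.8% of the summed counts of the 7 genes, so their sum, 1292 CPM in 4R to 4755 CPM in 2L, mainly gives Lyz2.

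The counting error was small beside the spread between the highest and lowest columns, but not always beside the differences between neighbouring columns. Of the 7 pairs of columns that are neighbours in the order of levels, the 95% Wilson intervals overlapped in 0 for Lyz2, 1 for Itgam, 2 for Ly6c2, 3 for Ccr2, 3 for Plac8, 5 for Fcgr1 and 6 for Cx3cr1. For Cx3cr1 the columns therefore form a nearly continuous order, in which only 1R and 4R differed among neighbours. These intervals cover counting error only, and no column has a known replicate, so the spread between samples of 1 condition is unknown.

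Between genes, levels were compared per length, as TPM (length-scaled shares of all transcripts) computed from the estimated counts and merged exon lengths of GENCODE M21. Lyz2 had a median of 3643 TPM over the 8 columns, Ly6c2 165 TPM, Itgam 115 TPM, Plac8 107 TPM, Ccr2 36.5 TPM, Cx3cr1 17.4 TPM and Fcgr1 8.93 TPM. Lyz2 and Ly6c2 were first and second, and Ccr2, Cx3cr1 and Fcgr1 came last, in that order, in all 8 columns. Itgam and Plac8 exchanged places, with Itgam above Plac8 in 2L and in the R columns of numbers 1, 3 and 4.

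The places of the genes in the GRCm38 build were taken from GENCODE M21, and all 7 are protein-coding. Ly6c2 lies on the minus strand of chromosome 15 at 75108158 to 75111970, and Lyz2 on the minus strand of chromosome 10 at 117277331 to 117282321. Ccr2 on the plus strand and Cx3cr1 on the minus strand share chromosome 9, at 124101950 to 124113557 and 119901616 to 120069879. Itgam is on the plus strand of chromosome 7 at 128062640 to 128118491, Fcgr1 on the minus strand of chromosome 3 at 96282909 to 96293969, and Plac8 on the minus strand of chromosome 5 at 100553725 to 100572245.

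Some of these genes share sequence with others, and the deposited counts carry fractions, so the way shared reads were split may bear on the values. Of the 50-base windows of the longest annotated transcript, 13.1% of those of Ly6c2 also occurred in transcripts of other genes, nearly all in Ly6c1, its neighbour on chromosome 15. For Lyz2 the share was 15.4%, all in Lyz1, and for Ccr2 2.27%. For Itgam it was 72.4%, all in Gm49368, a gene annotated on the same strand that overlaps 3450 of the 5024 exon bases of Itgam. Gm49368 was listed at 0.331 to 6.05 CPM. Fcgr1 and Plac8 shared no such window. The fractions did not simply follow this sharing: the counts of Lyz2 and Fcgr1 were whole in 100% of the columns, and those of Plac8 in 62.5%.

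The paralogs nevertheless ran apart from the monocyte genes in the deposited counts. Ly6c1, which is expressed in endothelial cells as well as leukocytes, had 52.1, 35.5, 72.0 and 68.0 CPM in 1L to 4L, against 147, 111, 110 and 83.4 CPM in 1R to 4R. R was above L in all 4 numbers and the sets did not overlap, the opposite order to Ly6c2. Over the genes with a mean of at least 5 CPM, 7.13% had L and R columns that did not overlap in CPM, in either order, and none of the 7 monocyte genes was among them. Lyz1 was low, at 1.93 to 4.82 CPM in the L columns and 3.07 to 7.85 CPM in the R columns. The fitted log2 difference of L minus R was -1.002 ± 0.267 (SE) for Ly6c1, with an adjusted p of 0.146 in edgeR's quasi-likelihood test.

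The promoter windows of Ly6c2, Plac8, Itgam, Ccr2 and Cx3cr1, and of Ly6c1 beside Ly6c2, are shown because the first 4 genes ran together over the columns and Cx3cr1 and Ly6c1 did not. Each is RefSeq sequence of GRCm38.p6, 5′ to 3′ on the gene's strand, from 250 bases before the RefSeq start to 50 after it. For Cx3cr1 that start lies 1583 bases downstream of the GENCODE start of the gene given above, and for Ccr2 233 bases, so these 2 windows lie inside the GENCODE bounds, wholly for Cx3cr1 and nearly so for Ccr2. The first window listed for each gene was used. Capitals mark GAGGAA or its reverse complement, a core of sites bound by the myeloid factor PU.1, in a window otherwise in lower case. The Ly6c2 window lies at chr15:75111922-75112221 and the Ly6c1 window at chr15:75048788-75049087, both on the minus strand. The Plac8 window lies at chr5:100572156-100572455 on the minus strand, the Itgam window at chr7:128062390-128062689 and the Ccr2 window at chr9:124101933-124102232 on the plus strand, and the Cx3cr1 window at chr9:120068247-120068546 on the minus strand.
Ly6c2: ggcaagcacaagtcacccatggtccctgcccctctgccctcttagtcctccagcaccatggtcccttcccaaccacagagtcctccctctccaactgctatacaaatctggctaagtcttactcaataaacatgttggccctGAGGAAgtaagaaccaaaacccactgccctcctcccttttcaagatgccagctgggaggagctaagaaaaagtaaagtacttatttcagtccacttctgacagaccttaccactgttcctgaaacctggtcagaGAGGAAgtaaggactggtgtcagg
Ly6c1: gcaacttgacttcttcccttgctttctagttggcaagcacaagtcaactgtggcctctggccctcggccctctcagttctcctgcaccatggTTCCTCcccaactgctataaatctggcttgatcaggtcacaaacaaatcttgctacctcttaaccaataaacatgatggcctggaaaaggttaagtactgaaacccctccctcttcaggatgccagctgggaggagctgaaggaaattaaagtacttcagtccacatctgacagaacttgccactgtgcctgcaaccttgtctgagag
Plac8: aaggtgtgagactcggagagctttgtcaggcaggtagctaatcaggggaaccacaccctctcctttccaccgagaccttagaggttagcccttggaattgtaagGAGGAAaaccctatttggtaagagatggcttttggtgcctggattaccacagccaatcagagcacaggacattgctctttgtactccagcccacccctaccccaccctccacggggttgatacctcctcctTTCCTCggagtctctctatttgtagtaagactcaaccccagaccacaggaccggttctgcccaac
Itgam: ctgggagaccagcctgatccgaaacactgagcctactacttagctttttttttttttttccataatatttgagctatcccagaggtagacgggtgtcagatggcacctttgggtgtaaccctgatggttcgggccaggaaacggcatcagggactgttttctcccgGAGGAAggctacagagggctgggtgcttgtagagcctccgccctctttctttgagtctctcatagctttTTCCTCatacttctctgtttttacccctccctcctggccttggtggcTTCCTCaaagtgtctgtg
Ccr2: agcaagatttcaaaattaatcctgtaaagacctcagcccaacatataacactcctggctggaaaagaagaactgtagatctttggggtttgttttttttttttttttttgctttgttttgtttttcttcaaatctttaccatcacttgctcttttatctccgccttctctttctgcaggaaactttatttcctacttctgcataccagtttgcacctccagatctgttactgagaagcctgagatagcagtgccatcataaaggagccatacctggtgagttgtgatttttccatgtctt
Cx3cr1: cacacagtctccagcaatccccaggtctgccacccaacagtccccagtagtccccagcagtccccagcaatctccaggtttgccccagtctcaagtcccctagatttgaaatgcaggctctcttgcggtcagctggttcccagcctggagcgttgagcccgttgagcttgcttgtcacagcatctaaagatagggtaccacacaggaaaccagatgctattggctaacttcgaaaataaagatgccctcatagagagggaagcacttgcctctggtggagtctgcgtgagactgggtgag

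The letters GAGGAA, on either strand, occurred in the windows of 4 of the 7 monocyte genes, against 28.3% of 27025 genes with a window in the table. With the RefSeq start as position 0, a match began at -108 and 26 for Ly6c2, at -146 and -15 for Plac8, at -84, -15 and 32 for Itgam and at -55 for Fcgr1. The first windows of Ccr2, Cx3cr1 and Lyz2 held none, so the genes that ran together include 1, Ccr2, without these letters. Ly6c1 held 1 match, at -158. A match is a description of letters and not a binding site. In a global alignment the Ly6c2 and Ly6c1 windows were identical at 208 of their aligned bases and differed at 58, with 68 gap positions.

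Neutrophil genes moved with Ly6c2 and Plac8. The 13 neutrophil genes, among them Mpo and Elane of early granulocytes and Ngp and Ltf of later ones, summed to 10876, 22603, 10303 and 7507 CPM in 1L to 4L, against 9807, 11258, 6920 and 4221 CPM in 1R to 4R. Like Ly6c2 and Plac8 they were highest in 2L, lowest in 4R and higher in L than in R within all 4 numbers, whereas the sum of the 7 monocyte genes was higher in L within 2 of 4. The erythroid sum was likewise highest in 2L, lowest in 4R and higher in L within all 4 numbers. It had 58651, 69598, 29955 and 33455 CPM in 1L to 4L, against 57690, 47454, 28070 and 21930 CPM in 1R to 4R. The columns between were ordered differently: 1L and 1R lay above 2R in the erythroid sum and below it in the neutrophil sum. The B cell sum was also higher in L within all 4 numbers, but it was highest in 1L and lowest in 2R. None of the 13 neutrophil genes was at 0 in any column, and the lowest value of any was 14.1 CPM. In the test of L against R given below, 0 of the 13 passed with edgeR, 10 had an unadjusted p below 0.05, and 10 passed with DESeq2, all with L higher. Over all genes tested, 1.47% passed with edgeR, 16.2% had an unadjusted p below 0.05 and 13.8% passed with DESeq2, 5.23% with L higher. The part of the neutrophil and erythroid sums in the levels of the monocyte genes was not tested.

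**Figure D2:**
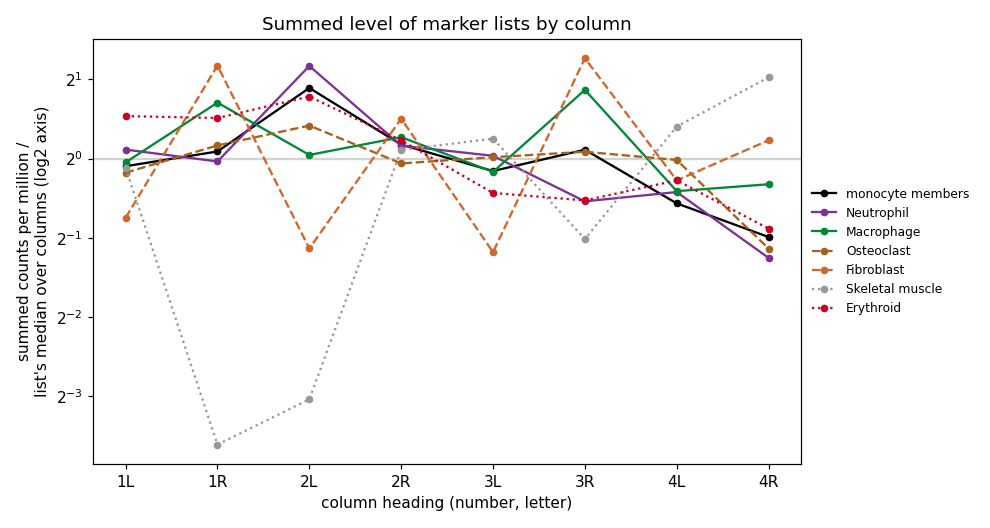
Summed CPM of 7 marker lists in each column (x axis), divided by the list's median over the 8 columns (y axis, log2 scale), with the monocyte genes in black. The monocyte and neutrophil sums are both highest in 2L and lowest in 4R, while the macrophage and fibroblast sums are highest in 3R.

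Set against the neutrophil sum of the same column, the monocyte genes ranged from a 1.37-fold spread over the columns for Plac8 and Ly6c2 to a 5.75-fold spread for Fcgr1. Ly6c2 kept a nearly constant ratio, with 19.9 to 21.2 counts per 1000 neutrophil counts in the L columns and 15.5 to 19.8 in the R columns, a 1.37-fold spread in all. Plac8 was as constant, at 7.03 to 8.64 in the L columns and 6.33 to 7.61 in the R columns. Lyz2, in contrast, had 143 to 165 per 1000 neutrophil counts in the L columns and 208 to 318 in the R columns, with no overlap. Fcgr1 had 0.499 to 1.08 in the L columns and 1.01 to 2.87 in the R columns, higher in R within all 4 numbers although the sets overlapped.

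These ratios need the background of all genes beside them, because the neutrophil sum itself was higher in L. Of 12469 genes with a mean of at least 5 CPM, 11.9% had every R column above every L column per neutrophil count, and 0.0481% had every L column above every R column. Lyz2 was the 1 of the 7 monocyte genes in the first class and Ly6c2 the 1 in the second, where the lowest L column, at 19.9, was barely above the highest R column, at 19.8. Ccr2 ranged over 8.17 to 11.7 in the L columns and 8.82 to 14.6 in the R columns, and Itgam over 20.9 to 26.8 in the L columns and 15.8 to 31.3 in the R columns. Cx3cr1 had the widest relative spread after Fcgr1, at 2.13 to 3.16 in the L columns and 2.06 to 7.78 in the R columns.

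**Figure D3:**
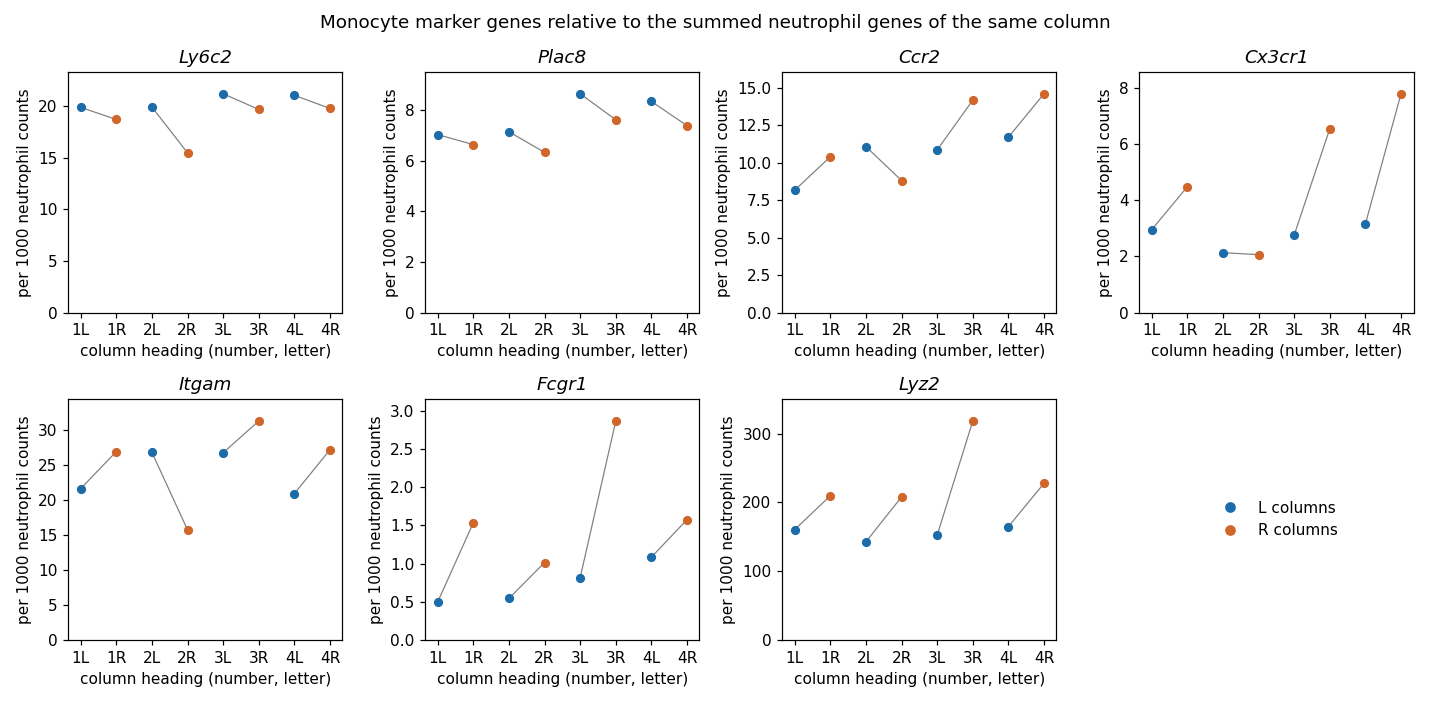
Counts of each monocyte gene per 1000 summed counts of the 13 neutrophil genes (y axis, from 0) in each column (x axis), with L in blue and R in orange and a grey line joining the columns of 1 number. Ly6c2 and Plac8 stay within 1.37-fold over the 8 columns, whereas every R column of Lyz2 lies above every L column.

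L and R were then compared in 1 fit over all genes, edgeR's quasi-likelihood test with the heading number as a block, on 15202 genes that passed its filter on low counts, the 7 monocyte genes among them. None of the 7 passed at an adjusted p below 0.05 in edgeR's test, 2 passed in DESeq2's, which called 13.8% of all genes, and 2 of 7 had an unadjusted p below 0.05, as did 16.2% of all genes tested. Over all genes 1.47% passed, 1.43% with R higher and 0.0395% with L higher. The median log2 difference of L minus R was 0.46 for the monocyte genes and 0.03 for all genes.

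Plac8 and Ly6c2 had the greatest differences relative to their error. The log2 difference was 0.80 ± 0.17 (SE) for Plac8, with an adjusted p of 0.0880 in edgeR's quasi-likelihood test, and 0.81 ± 0.21 for Ly6c2, with an adjusted p of 0.131. Their 95% intervals, 0.39 to 1.21 and 0.32 to 1.30, are not adjusted for the number of genes. DESeq2's Wald test with the same block gave adjusted p-values of 3.159e-05 for Plac8 and 3.867e-04 for Ly6c2, so these 2 calls depend on the test.

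For the other 5 genes the 95% interval of the difference included 0. The log2 difference of L minus R was 0.60 for Itgam (interval -0.13 to 1.33), 0.46 for Ccr2 (-0.09 to 1.02) and 0.03 for Lyz2 (-0.61 to 0.68). It was -0.14 for Cx3cr1 (-0.81 to 0.54) and -0.57 for Fcgr1 (-1.33 to 0.18). Differences of over 1.5-fold in at least 1 direction lie within each of these intervals, so the fit does not show that L and R were alike for these genes.

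**Figure D4:**
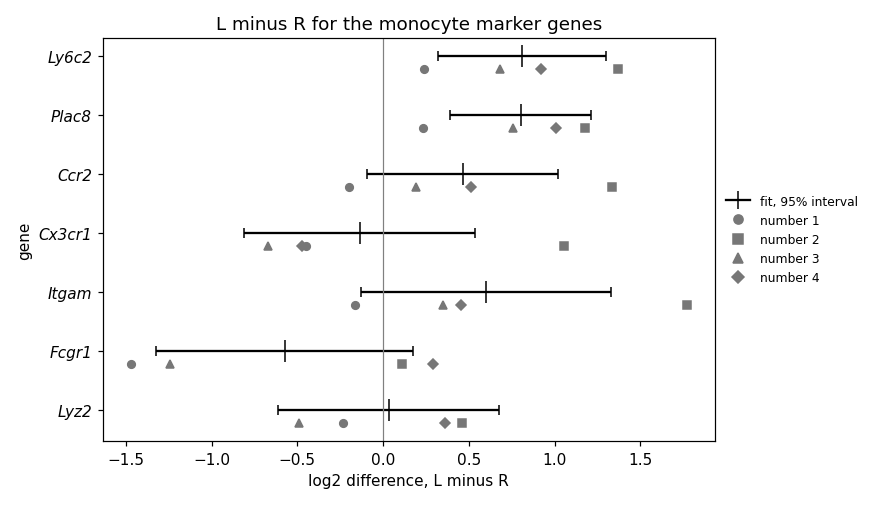
Log2 difference of L minus R (x axis) for the 7 monocyte genes (y axis): black bars give the edgeR estimate with its 95% interval, and grey symbols the log2 ratio of CPM for each heading number. All 4 symbols lie above 0 for Ly6c2 and Plac8, and for Cx3cr1 only number 2 does.

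Other monocyte genes gave a mixed picture. Of 16, 1 passed edgeR's test, with R higher: Vcan, a large proteoglycan that classical monocytes and also fibroblasts express, at 20.7, 59.0, 37.0 and 24.6 CPM in 1L to 4L, against 150, 159, 177 and 42.7 CPM in 1R to 4R. The other 15 did not pass, and the median log2 difference over the list was 0.31. An unadjusted p below 0.05 was reached by 10 of the 16, and DESeq2 passed 5 with L higher and 4 with R higher, against 5.23% and 8.59% of all genes. Chil3, a chitinase-like protein of marrow monocytes and neutrophils, was higher in L within all 4 numbers, with a log2 difference of 0.93 ± 0.25 (SE). Chil3 reached 1948 CPM in 2L, against 666 CPM in 2R. Fn1, by far the most abundant gene of the list at 5278 to 7190 CPM in the L columns and 6951 to 15712 CPM in the R columns, is also made by fibroblasts and chondrocytes.

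Cd14, a co-receptor for endotoxin, had 10.4, 13.6, 12.1 and 13.2 CPM in 1L to 4L, against 26.9, 30.9, 48.6 and 10.3 CPM in 1R to 4R. It was higher in R within numbers 1 to 3 and the log2 difference was -1.06 ± 0.33 (SE), with an adjusted p of 0.197 in edgeR's quasi-likelihood test. Among genes of the non-classical monocyte, Treml4 was at 5.91 to 10.7 CPM in the L columns and 1.70 to 5.77 CPM in the R columns, and Nr4a1, a transcription factor these cells need, at 25.4 to 79.2 CPM in the L columns and 44.0 to 126 CPM in the R columns. The L and R columns of Treml4 were only barely apart, with 5.91 CPM in 4L against 5.77 CPM in 3R. Over the genes with a mean of at least 5 CPM, 7.13% had L and R columns that did not overlap. Those of Nr4a1 overlapped. Ace, which encodes angiotensin-converting enzyme, was at 37.9 to 57.3 CPM in the L columns and 40.3 to 86.7 CPM in the R columns, and R was above L within all 4 numbers, the opposite of Treml4. Spn, which encodes CD43, was at 85.5 to 220 CPM in the L columns and 40.6 to 109 CPM in the R columns and was higher in L within 3 numbers. Nr4a1 is also an immediate early gene of many cell types.

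The ligands of CCR2 were scarce. Ccl2 had 0.566, 0.583, 0 and 0.131 CPM in 1L to 4L, against 5.81, 9.64, 12.2 and 3.97 CPM in 1R to 4R. Ccl7 had 1.93, 0.689, 1.16 and 0.591 CPM in the L columns, against 5.46, 11.1, 18.6 and 3.59 CPM in the R columns. For both, every R column was above every L column, while their receptor gene Ccr2 was higher in L within 3 of 4 numbers. Over the genes with a mean of at least 5 CPM, which include Ccl7 but not Ccl2, 7.13% had L and R columns that did not overlap. In edgeR's quasi-likelihood test, Ccl2 and Ccl7 both had an adjusted p of 0.0550, just above the threshold. Cx3cl1, the ligand of CX3CR1, had 11.98 to 15.8 CPM in the L columns and 12.4 to 28.4 CPM in the R columns, and 0 of the 7 listed genes of this group of ligands and partners passed edgeR's test. Of these 7, 4 had an unadjusted p below 0.05, against 16.2% of all genes tested. With DESeq2 4 passed, all with R higher, against 8.59% of all genes.

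The group of the CD64 signalling chain and 3 other Fc receptor genes summed to 144 to 359 CPM in the L columns and 127 to 283 CPM in the R columns, highest in 2L and lowest in 4R. Fcer1g, the signalling chain of CD64, had 61.8 to 154 CPM in the L columns and 51.7 to 111 CPM in the R columns. Fcgr2b, the inhibitory receptor for IgG, had 35.8, 77.5, 38.5 and 38.3 CPM in 1L to 4L, against 64.8, 55.1, 83.7 and 29.2 CPM in 1R to 4R. None of the 4 genes of this group passed edgeR's test, 0 had an unadjusted p below 0.05, 0 passed with DESeq2, and their median log2 difference was 0.07. Of 6 myeloid transcription factors 0 passed with edgeR, 0 with DESeq2, and 1 had an unadjusted p below 0.05. Spi1, which encodes PU.1, had 60.2 CPM in 4R and 237 CPM in 2L, the same end columns as Ly6c2. Irf8, needed for monocyte development, had 79.4 to 216 CPM in the L columns and 60.5 to 140 CPM in the R columns and was higher in L within all 4 numbers. Klf4, the 1 with an unadjusted p below 0.05, went the other way, with R above L within all 4 numbers. Its log2 difference was -0.49 ± 0.21 (SE), against 0.42 for Spi1 and 0.54 for Irf8. The differences of Cebpa, Cebpb and Irf5 were smaller, at 0.16, 0.06 and 0.04.

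Macrophage genes leaned the other way from Ly6c2 and Plac8. The 14 macrophage genes summed to 624, 666, 575 and 485 CPM in 1L to 4L, against 1053, 778, 1176 and 516 CPM in 1R to 4R, higher in R within all 4 numbers. Of the 13 tested, 2 passed edgeR's test, both with R higher: Trem2, a lipid-sensing receptor, with a log2 difference of -1.74 ± 0.21 (SE), and C1qc, a complement subunit, with -0.89 ± 0.15. An unadjusted p below 0.05 was reached by 6 of the 13, and 6 passed with DESeq2, all with R higher, against 8.59% of all genes. Among the 13, the fitted difference had the opposite sign only for Timd4, Cd163 and Siglec1. It was 0.78 ± 0.815 (SE), 0.31 ± 0.195 and 0.27 ± 0.346, and none of the 3 passed either test. The median log2 difference was -0.36, against 0.03 over all genes. Marco, which did not pass the filter on low counts, was at 0 in 3R and 4L. The CPM of Cx3cr1, Fcgr1 and Lyz2, which macrophages also express, were higher in R, as this sum was, in numbers 1 and 3. In number 2 all 3 were higher in L, against the sum. In number 4 Fcgr1 and Lyz2 were higher in L and Cx3cr1 in R. The part of the macrophage sum in these levels was not tested.

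Other lists were summed in the same way. The fibroblast genes summed to 6499 to 12163 CPM in the L columns and 17275 to 35405 CPM in the R columns, without overlap, and 3 of 5 passed edgeR's test with R higher. The osteoclast genes, of cells that derive from the monocyte lineage, summed to 1483 to 2239 CPM in the L columns and 765 to 1883 CPM in the R columns. The dendritic cell genes summed to 43.1 to 85.1 CPM in the L columns and 31.2 to 70.8 CPM in the R columns, and the T and NK cell genes to 32.4 to 86.3 CPM in the L columns and 19.2 to 51.7 CPM in the R columns. The B cell genes summed to 805 to 2785 CPM in the L columns and 580 to 2224 CPM in the R columns, and the endothelial genes to 183 to 280 CPM in the L columns and 295 to 398 CPM in the R columns. None of the genes of these last 5 lists, nor of the neutrophil, erythroid, chondrocyte and muscle lists, passed edgeR's test. In these lists beside the neutrophil one, an unadjusted p below 0.05 was reached by 1 T and NK cell gene, 2 B cell genes, 2 endothelial genes and 2 erythroid genes. DESeq2 passed 1 T and NK cell gene, 2 B cell genes and 2 erythroid genes with L higher, and 1 endothelial gene with R higher.

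The genes most like the monocyte genes were named by Pearson r of log2(CPM + 1) over the 8 columns, among 12469 genes. Ngp, a neutrophil granule protein, was the nearest gene to Ly6c2 (r = 0.998), Elane, neutrophil elastase, to Plac8 (r = 0.997), and Ncf1, a subunit of the phagocyte oxidase, to Itgam (r = 0.993). The nearest gene was Cep152 for Ccr2 (r = 0.993), Trim41 for Cx3cr1 (r = 0.981), Gm4735 for Lyz2 (r = 0.988) and Eif1a for Fcgr1 (r = 0.983). For the mean standardised profile of the 7 genes, the 5 nearest were Fam117b, Rp2, Stxbp5, Trim30a and Capza1-ps1, with r between 0.986 and 0.992. The columns share tissue makeup and may share animals, so these values describe likeness only.

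Within the set, Ly6c2 and Plac8 were each other's closest members (r = 0.992), and Ccr2 and Itgam were close to them and to each other, with r between 0.914 and 0.95. Fcgr1 was least like the others, with r of 0.13 to Ly6c2 and 0.14 to Plac8. Cx3cr1 reached at most r = 0.59, with Itgam. Lyz2 had r of 0.82 to Ccr2 and 0.625 to Fcgr1.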

How the data were processed

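RNA was measured by sequencing in 8 cartilage samples. The authors deposited 1 table of estimated counts per gene; per the submitters' processing notes, the tools were STAR, Partek and DESeq2, without role or version, and the build GRCm38 or mm10. The counting method and filter are not stated there. In the deposited values, 58.9% to 66.6% per column were whole (within 1e-06), and no gene had a maximum below 50. All 8 value columns were used.

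Levels are CPM of the column total. For tests, counts were rounded to whole numbers and fitted in edgeR 4.0.16 (R 4.3.3) with TMM scaling, filterByExpr, the heading number as a block and Benjamini-Hochberg adjustment over 15202 genes; the script was tested on simulated data. DESeq2 1.42.0, other scalings, no filter, no block and left-out numbers were alternatives. Intervals of counts are Wilson 95%. Named genes were the 7 monocyte genes, up to 3 genes per list by mean CPM where a sentence turns on them, and the nearest genes by r; the members and lists were chosen with earlier results of these data known. Examples from the lists beyond the 3 most abundant, such as Vcan, Cd14, Treml4, Nr4a1, Ace, Spn, Trem2, Timd4, Klf4, Ccl2 and Ccl7, were chosen after their values were seen. Replicates are called biological in the labels, but no column has a known condition. With the block, p-values set the L minus R difference against its variation across the heading numbers. Without the block, they set it against the spread between columns of a letter. Xist was at 322 to 624 CPM in every column, and of 4 Y-linked genes looked for 0 were listed. Lengths cover 98.5% of the symbols.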

Additional observations from a re-analysis of the deposited data

Results flagged for a closer look

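Column 2L stood apart for 4 of the 7 monocyte genes, with a gap to the next column of more than 0.526 of the whole range over the 8 columns. The values in 2L were 450 CPM for Ly6c2, 250 CPM for Ccr2, 606 CPM for Itgam and 161 CPM for Plac8. The gap took up 0.632 of the range for Ly6c2, 0.734 for Ccr2, 0.672 for Itgam and 0.556 for Plac8. Chance flags about 1 in 20 such sets if the values are normally distributed, and these genes are not independent of each other. The rule was applied to CPM. On a log2 scale these gaps take up a smaller share of the range, and the rule was not run there. The share of all genes that the rule flags in 2L was not computed, so the 4 of 7 cannot be set against it. The same column had the highest neutrophil sum, 22603 CPM, and the highest erythroid sum, 69598 CPM. It also had the highest sums of the dendritic cell, T and NK cell, Fc receptor and myeloid transcription factor genes. The lowest endothelial sum, 183 CPM, and the second lowest muscle sum, 3083 CPM, were in 2L as well. The osteoclast sum was highest in 2L too, but 1575 of its 2239 CPM were Mmp9. Acp5, Ctsk, Ocstamp and Dcstamp were lower in 2L than in 2R, while Oscar and Atp6v0d2 were higher. The sum of chemokine ligands and partners was highest in 2L, but 525 of its 576 CPM were Itgb2. Ccl2, Ccl7, Ccl8 and Cx3cl1 were each lower in 2L than in 2R. The part of these sums in the levels of the monocyte genes was not tested.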

How the results depend on the processing

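The direction of L minus R was kept under every alternative run for 6 of the 7 monocyte genes; for Lyz2 it was -0.0537 without number 2 and -0.0605 without number 4, up to 0.14 without number 3, against 0.03 in all columns. The sizes moved more: without number 2 the log2 difference was 0.28 for Itgam (0.60 in all columns), 0.23 for Ccr2 (0.46) and -0.46 for Cx3cr1 (-0.14), Cx3cr1 ranged up to -0.0024 without number 4 (-0.0713 without number 1 and -0.015 without number 3), and Fcgr1 was -0.32 without number 1 (-0.57). With 1 number left out Ly6c2 ranged over 0.68 to 0.96 and Plac8 over 0.73 to 0.95. Over all genes, 224 passed with the block (6 with L higher, 218 with R higher), and 463 without the replicate block (18 with L higher, 445 with R higher). DESeq2's Wald test passed 2114 (800 with L higher, 1314 with R higher), Ly6c2 and Plac8 among them. With 1 number left out, 0 to 89 genes passed (0 to 2 with L higher, 0 to 89 with R higher): 39 without number 1, 0 without number 2, 0 without number 3 and 89 without number 4, with fewer columns in each fit; the cause was not tested further. Columns with the same number did not all deviate together (r of 0.01, -0.21, -0.04 and 0.42 for numbers 1 to 4), so the block may not mark pairs. The median summed level of the 7 genes ranged from 2351 to 2751 CPM when 1 number was left out. The spread between the highest and lowest column was smaller with TMM scaling than in CPM for all 7 genes. It was 4.01-fold rather than 5.39-fold for Ly6c2, 3.93 rather than 5.28 for Itgam and 3.85 rather than 5.18 for Plac8. For Ccr2 it was 3.02 rather than 4.06, for Lyz2 2.50 rather than 3.36, for Fcgr1 3.49 rather than 3.66 and for Cx3cr1 1.92 rather than 2.08. Of the 5 genes most like the mean profile, 2 were kept with TMM scaling. The lowest counts, those of Fcgr1 in 1L, set the depth limit among the 7 genes.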
